A study of Arabidopsis thaliana with 12 samples.

Results

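The alpha-expansin genes of Arabidopsis thaliana were examined in seedlings that differed in the transcription factor gene SLIM1 and in the metal they were exposed to. The members were all genes whose symbol is EXPA followed by digits and that the probe table pairs with a probe set of 1 gene. This gave 10 genes of the 13356 genes tested, each with 1 probe set, out of 26 alpha-expansin genes in the RefSeq table. A further 4 family genes lie on 2 probe sets that stand for several family genes and were not used, and 12 were not analysed here. The members were EXPA4 (AT2G39700), EXPA7 (AT1G12560), EXPA8 (AT2G40610), EXPA9 (AT5G02260), EXPA15 (AT2G03090), EXPA16 (AT3G55500), EXPA18 (AT1G62980), EXPA20 (AT4G38210), EXPA21 (AT5G39260) and EXPA24 (AT5G39310).

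The 4 groups were slim1-1 seedlings on 100 µM cadmium, wild-type Col-0 seedlings on 100 µM cadmium, slim1-1 seedlings on 20 µM arsenite and Col-0 seedlings on 20 µM arsenite. All seedlings were grown on minimal medium and were 14 days old, and their total RNA, taken from the whole plant, was measured on Affymetrix arrays with 1 label. Each group had 3 replicates, stated to be biological, so 12 arrays were compared. SLIM1 belongs to the EIN3-like transcription factors and governs the response to low sulfur, and slim1-1 is a mutant allele of it. The labels give 12 days without metal and then 48 h on arsenite for every sample, also those on cadmium, so the time on cadmium is unknown. No untreated seedlings were analysed here. SLIM1 itself was not analysed by name, so the genotype labels were not checked against it.

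Expansins are secreted proteins that loosen the plant cell wall without cutting its polymers, by weakening the contacts between cellulose and the polysaccharides that bind it. They act best at acid pH and are known for their part in acid growth, in which proton pumps acidify the wall of a growing cell. In roots, EXPA7 and EXPA18 are known as the root hair expansins, expressed in hair cells as the hair emerges and elongates. EXPA21 and EXPA24 are the first and the last gene of a run of 6 adjacent family genes in the RefSeq annotation.

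Values are log2 expression values as deposited. The medians of the tested genes lay between 5.10 and 5.12 on the slim1-1 cadmium arrays, between 5.06 and 5.07 on the wild-type cadmium arrays, between 6.45 and 6.48 on the slim1-1 arsenite arrays and between 6.39 and 6.43 on the wild-type arsenite arrays. The cadmium and arsenite sets therefore do not share a scale. Genotypes were compared within a metal on the deposited values, and metals were compared on values shifted to a common array median. Each metal was given at 1 dose and measured in 1 set of arrays, so metal, dose and set cannot be told apart. The number of arrays limits the precision, and the median standard error over all genes was 0.0914 for a genotype difference and 0.0928 for a metal difference, on the log2 scale.

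**Figure D1:**
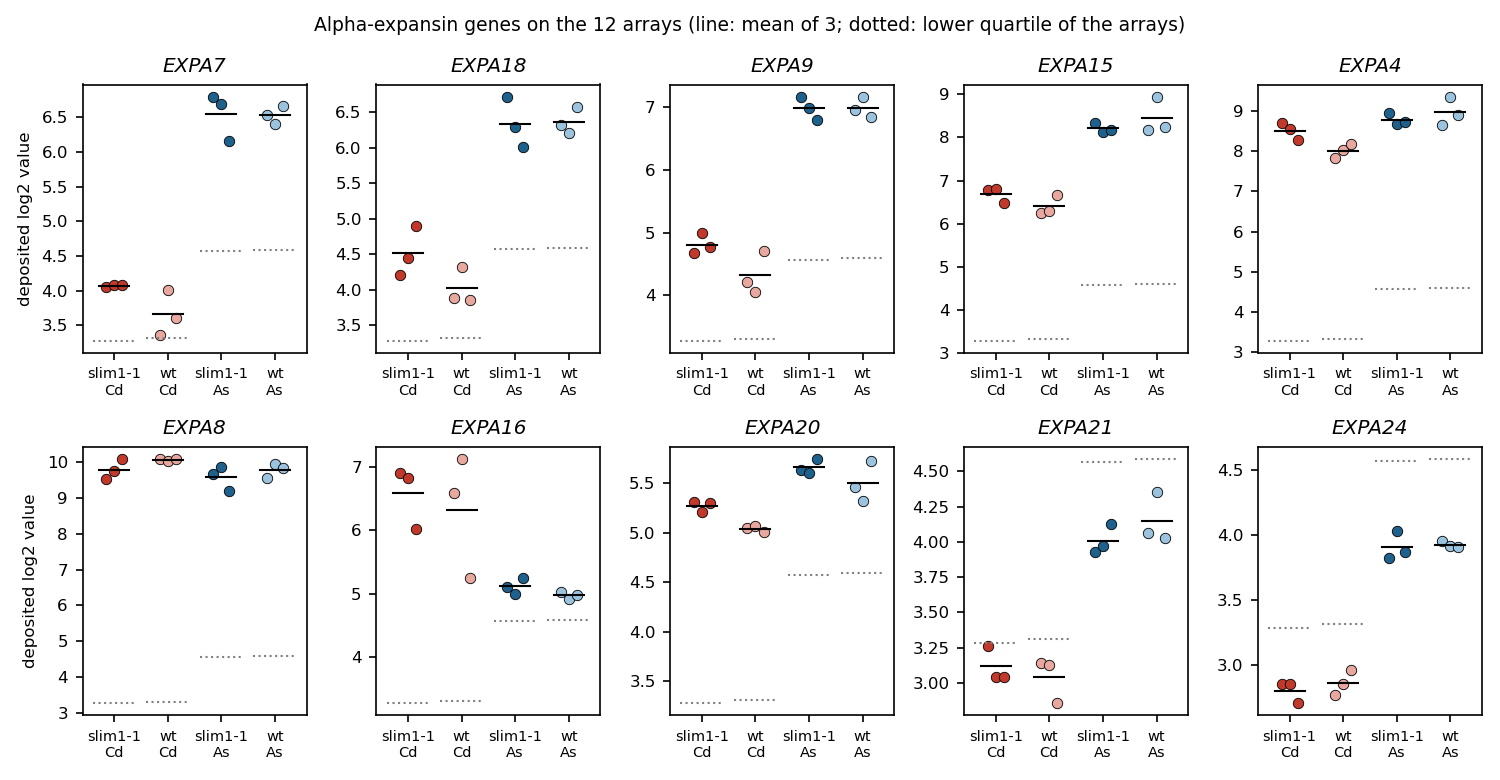
Deposited log2 value (vertical axis) of each alpha-expansin gene on the 12 arrays, with points for arrays and a line for the mean of the 3 arrays of a group (slim1-1 and wild type under cadmium, Cd, then under arsenite, As). The dotted line is the mean lower quartile of all probe sets on the arrays of that group: EXPA21 and EXPA24 lie below it in all groups. The cadmium and arsenite sets do not share this scale, on which EXPA16 is higher in both cadmium groups. Its lowest wild-type cadmium array looks close to the arsenite arrays only on the deposited values. Minus the array median that array lay at 0.20, against -1.47 to -1.38 in wild type and -1.46 to -1.19 in slim1-1 under arsenite.

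The first comparison asked how slim1-1 seedlings differed from wild type under cadmium. No alpha-expansin gene passed the test (limma, adjusted p under 0.05), whereas 12.3% of all tested genes did (6.62% higher and 5.71% lower), and 8 of the 10 members had a positive difference and 2 a negative one. The median difference of the members was 0.27, against -0.01 for all 13356 genes, on the log2 scale. At an unadjusted p under 0.05 there were 5 of the 10 members, EXPA4, EXPA7, EXPA9, EXPA18 and EXPA20, all with higher means in slim1-1, and 3490 of all 13356 genes. The groups did not overlap for 3 members, EXPA4, EXPA7 and EXPA20, and for 31.2% of all genes.

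Of the root hair pair, EXPA7 had log2 values of 4.06, 4.08 and 4.08 in slim1-1 under cadmium, against 3.36, 4.01 and 3.60 in wild type under cadmium. The 3 mutant arrays were close together, and the highest wild-type array came just under them. The mean of EXPA7 was 4.07 ± 0.01 in slim1-1 and 3.66 ± 0.33 in wild type (SD, n = 3 each), and the difference of 0.41 ± 0.17 (SE) did not pass the limma test (adjusted p = 0.139). EXPA18 had log2 values of 4.20, 4.45 and 4.90 in slim1-1 under cadmium, against 3.88, 4.32 and 3.85 in wild type under cadmium. Its groups overlapped, since the lowest mutant array lay below the highest wild-type array, and the difference was 0.50 ± 0.20 (limma adjusted p = 0.138). In whole seedlings, fewer cells of a type and less RNA per cell cannot be told apart. Of 26 listed root hair genes 1 was measured, the RhoGDI gene SCN1, which restricts where a root hair forms. Its difference was -0.14 ± 0.07 (limma adjusted p = 0.239). SCN1 was not shown to be limited to hair cells, so its value does not measure their share. The root marker PYK10, a beta-glucosidase gene and 1 measured of 11, differed by 0.09 ± 0.08 (limma adjusted p = 0.488).

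EXPA4 had log2 values of 8.71, 8.55 and 8.28 in slim1-1 under cadmium, against 7.84, 8.04 and 8.18 in wild type under cadmium. All mutant arrays were higher, and the difference of 0.50 ± 0.16 had a 95% interval of 0.15 to 0.85 and an adjusted p of 0.0658 in limma. EXPA9 had log2 values of 4.67, 4.99 and 4.77 in slim1-1 under cadmium, against 4.21, 4.05 and 4.71 in wild type under cadmium. Wild-type replicate 3 lay among the mutant arrays and the other two wild-type arrays below them, and the difference was 0.49 ± 0.16 (limma adjusted p = 0.0640). Without wild-type cadmium replicate 3 the EXPA9 difference was 0.68 (adjusted p = 0.0102), and without wild-type cadmium replicate 2 the EXPA7 difference was 0.59 (adjusted p = 0.0405), both past the threshold in limma. Other arrays moved these differences the other way. Without wild-type cadmium replicate 1 that of EXPA7 was 0.27 (limma adjusted p = 0.413), without wild-type cadmium replicate 2 that of EXPA9 was 0.35 (adjusted p = 0.215), and without slim1-1 cadmium replicate 3 that of EXPA18 was 0.31 (adjusted p = 0.390). EXPA4 passed with only the 6 cadmium arrays in the fit (adjusted p = 0.0380) and without slim1-1 cadmium replicate 3 (adjusted p = 0.0448), wild-type arsenite replicate 1 (adjusted p = 0.0451) or wild-type arsenite replicate 2 (adjusted p = 0.0293), in limma fits, and over all alternatives its adjusted p ranged up to 0.217. With array weights, which let limma count noisy arrays less, EXPA4 (adjusted p = 0.0476) and EXPA9 (adjusted p = 0.0150) passed. The weights also raised the calls over all genes, to 2177 from 1646.

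EXPA20 had log2 values of 5.31, 5.21 and 5.30 in slim1-1 under cadmium, against 5.05, 5.07 and 5.01 in wild type under cadmium. The groups were tight and apart, with a small difference of 0.23 ± 0.09 (limma adjusted p = 0.128). EXPA15 had log2 values of 6.79, 6.81 and 6.47 in slim1-1 under cadmium, against 6.25, 6.30 and 6.67 in wild type under cadmium, with overlapping groups and a difference of 0.28 ± 0.18 (limma adjusted p = 0.361). EXPA16 varied most among replicates, with log2 values of 6.91, 6.83 and 6.02 in slim1-1 under cadmium, against 6.60, 7.13 and 5.25 in wild type under cadmium. Wild-type replicate 3 was low, the difference was 0.26 ± 0.36 (limma adjusted p = 0.711), and its 95% interval ran from -0.52 to 1.04. With so wide an interval neither the sign nor the size of a genotype difference of EXPA16 is resolved. Without wild-type cadmium replicate 3 the EXPA16 difference was -0.28.

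EXPA8 was the member with the largest negative difference between genotypes under cadmium, with log2 values of 9.53, 9.76 and 10.08 in slim1-1 and 10.09, 10.03 and 10.07 in wild type. The wild-type arrays were nearly equal, the mutant arrays were spread out and slim1-1 replicate 3 reached them, and the difference was -0.27 ± 0.17 (limma adjusted p = 0.338). EXPA21 differed by 0.07 ± 0.11 (limma adjusted p = 0.728) and EXPA24 by -0.06 ± 0.08 (limma adjusted p = 0.695). Both lay below the lower quartile of all probe sets on all 12 arrays, so that a signal over background is not shown for them. No other member lay there on any array, but EXPA7 came close on wild-type cadmium replicate 1. Its value there was 3.36, against a lower quartile of 3.32 on that array.

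Some controls for RNA were apart between genotypes under cadmium. The 25S ribosomal RNA control probe set gave 9.45 to 10.1 in slim1-1 and 10.3 to 10.7 in wild type under cadmium (log2). Between the actin control probe sets the 3' value exceeded the 5' value by 3.71 to 3.97 in slim1-1 and 3.53 to 3.61 in wild type under cadmium (log2). Both gave an exact permutation p of 0.1 (two-sided), and no smaller p is possible with 3 arrays a group. Their part in the genotype differences was not tested. Setting all arrays to a common median moved the split of all genes called under cadmium to 652 higher and 1057 lower, against 884 higher and 762 lower on the deposited values, and the signs of the 10 members stayed as given.

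**Figure D2:**
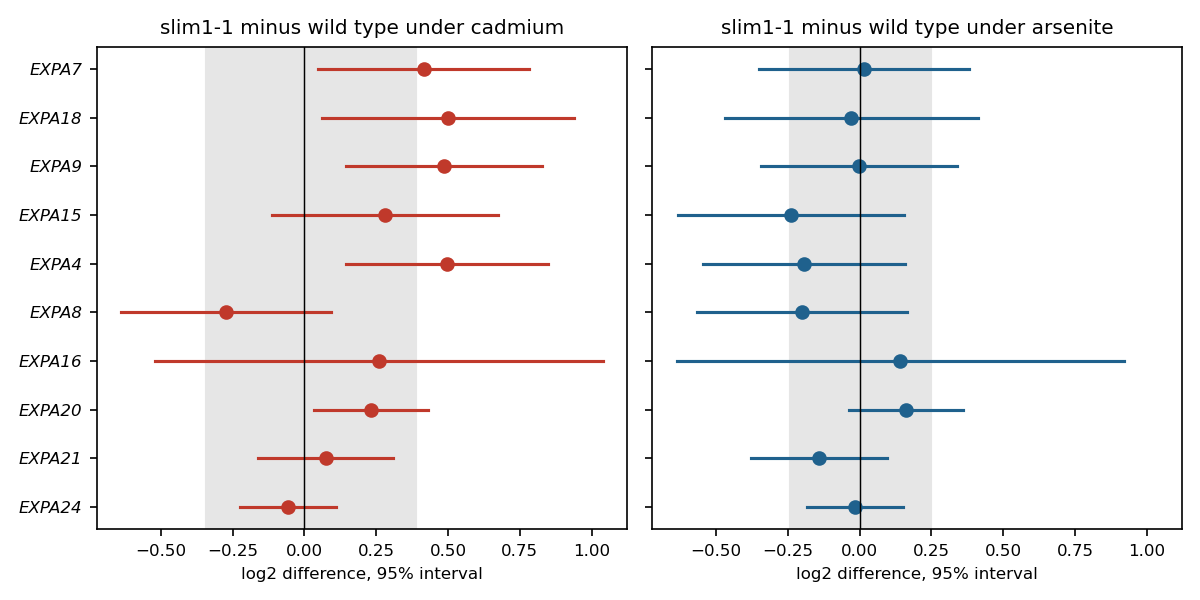
Log2 difference slim1-1 minus wild type (horizontal axis) of each alpha-expansin gene under cadmium (left) and under arsenite (right), with 95% intervals from 3 arrays a group. The grey band spans the 5th to the 95th percentile of all 13356 genes: under cadmium EXPA4, EXPA7, EXPA9 and EXPA18 lie beyond its upper edge, and under arsenite all 10 members lie inside it.

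The same comparison was then made under arsenite. No member passed the test (limma), whereas 1.05% of all genes were called, 61 higher (0.457%) and 79 lower (0.591%) in slim1-1. At an unadjusted p under 0.05 there was no member either, and 1716 of all 13356 genes. After a shift to a common array median the split of all genes was 42 higher and 152 lower. The members ranged from -0.24 (EXPA15) to 0.16 (EXPA20), with a median of -0.02 against 0.01 for all genes, and their adjusted p-values were 0.503 or more. The groups overlapped for all 10 members, whereas they did not overlap for 18.2% of all genes.

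EXPA7 had log2 values of 6.80, 6.70 and 6.16 in slim1-1 under arsenite, against 6.53, 6.41 and 6.67 in wild type under arsenite. EXPA18 had log2 values of 6.72, 6.29 and 6.01 in slim1-1 under arsenite, against 6.31, 6.21 and 6.57 in wild type under arsenite. In both genes slim1-1 replicate 3 was the lowest array, the groups overlapped, and the differences were 0.02 ± 0.17 and -0.03 ± 0.20 (limma adjusted p = 0.984 and 0.977). The 95% interval of the EXPA7 difference under arsenite was -0.35 to 0.38 and that of EXPA18 was -0.47 to 0.41. SCN1 differed by -0.22 ± 0.07 under arsenite (limma adjusted p = 0.205) and PYK10 by 0.05 ± 0.08 (limma adjusted p = 0.861).

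EXPA4 had log2 values of 8.95, 8.69 and 8.73 in slim1-1 under arsenite, against 8.67, 9.36 and 8.92 in wild type under arsenite. EXPA15 had log2 values of 8.33, 8.13 and 8.18 in slim1-1 under arsenite, against 8.16, 8.95 and 8.24 in wild type under arsenite. Wild-type replicate 2 was the highest array of both genes, the groups overlapped, and the differences were -0.19 ± 0.16 for EXPA4 and -0.24 ± 0.18 for EXPA15 (limma adjusted p = 0.690 and 0.651). Without that array they were -0.005 for EXPA4 and 0.01 for EXPA15. Controls for RNA were apart between genotypes under arsenite too. The GAPDH 3' minus 5' difference was 0.76 to 0.91 in slim1-1 and 0.93 to 0.99 in wild type, and that of ubiquitin was 0.88 to 0.95 in slim1-1 and 0.78 to 0.83 in wild type (log2, exact permutation p = 0.1 for each). Their part in the genotype differences under arsenite was not tested. EXPA8 differed by -0.20 ± 0.17, EXPA16 by 0.14 ± 0.36 and EXPA20 by 0.16 ± 0.09 under arsenite.

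Whether the genotype difference itself depended on the metal was tested as an interaction, the difference under cadmium minus that under arsenite. No member passed (limma, adjusted p under 0.05), against 4.3% of all genes (2.19% positive and 2.1% negative). Under an unadjusted p of 0.05 were 2 of the 10 members, EXPA4 and EXPA9, and 2465 of all 13356 genes. That count does not set the members apart. The interaction was 0.69 ± 0.23 for EXPA4 (limma adjusted p = 0.121), 0.53 ± 0.29 for EXPA18 (adjusted p = 0.361), 0.52 ± 0.26 for EXPA15 (adjusted p = 0.309), 0.49 ± 0.22 for EXPA9 (adjusted p = 0.267) and 0.40 ± 0.24 for EXPA7 (adjusted p = 0.414). It was positive for 8 of 10 members, with a median of 0.31 against -0.02 for all genes. The interval of EXPA16 was the widest, from -0.99 to 1.22. Genotype differences of the members under cadmium are thus not shown to differ from those under arsenite.

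The metals were then compared within each genotype. After the shift to a common array median the median gene still lay 0.19 higher under cadmium in slim1-1 and 0.21 higher in wild type, so each member's difference is also given relative to the median gene. In slim1-1, 9 members passed the test, 6 higher and 3 lower under cadmium, against 66.1% of all genes (46.7% higher and 19.5% lower). In wild type, 8 members passed, 4 higher and 4 lower, against 67.3% of all genes (48.5% higher and 18.7% lower). Most genes were called in these comparisons, so the counts do not set the members apart. The groups did not overlap for 8 members in slim1-1, against 67.4% of all genes, and for 8 members in wild type, against 73.6% of all genes. With the median gene set to 0, an alternative added after seeing the data, 7 members passed in each genotype, and the split of all genes was 3628 higher and 3913 lower in slim1-1, against 6233 and 2600 with the common median. In wild type it was 3555 higher and 3872 lower, against 6482 and 2504.

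Both root hair expansin genes were lower under cadmium in wild type, and EXPA7 also in slim1-1, where the call of EXPA18 depended on the processing. EXPA7 lay at -1.04 ± 0.01 under cadmium and 0.09 ± 0.33 under arsenite in slim1-1, and at -1.41 ± 0.33 under cadmium and 0.13 ± 0.11 under arsenite in wild type (log2 minus the array median, SD, n = 3 each). The metal groups were well apart in each genotype, and the EXPA7 difference was -1.13 ± 0.16 in slim1-1 (limma adjusted p = 5.35e-05) and -1.53 ± 0.16 in wild type (adjusted p = 3.49e-06). Relative to the median gene these were -1.32 and -1.74. EXPA18 lay at -0.90, -0.66 and -0.22 under cadmium and 0.24, -0.18 and -0.44 under arsenite in slim1-1, and at -1.19, -0.75 and -1.21 under cadmium and -0.09, -0.18 and 0.15 under arsenite in wild type. In slim1-1 cadmium replicate 3 lay above arsenite replicate 3, so the groups overlapped, whereas in wild type they were apart.

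The EXPA18 difference was -0.47 ± 0.20 in slim1-1 (limma adjusted p = 0.0487) and -1.004 ± 0.20 in wild type (adjusted p = 0.000584), or -0.66 and -1.21 relative to the median gene. The EXPA18 call in slim1-1 held in 7 of 22 alternatives. It was lost after quantile (adjusted p = 0.0755) and cyclic loess normalization (adjusted p = 0.0630), with eBayes trend and robust (adjusted p = 0.0536), with only the 6 slim1-1 arrays (adjusted p = 0.0800) and over all non-control probe sets (adjusted p = 0.0520). It was also lost when 9 of the single arrays were left out, most without slim1-1 arsenite replicate 1 (-0.29, adjusted p = 0.211) or slim1-1 cadmium replicate 1 (-0.32, adjusted p = 0.199) in limma. The gene SCN1, not shown to be limited to hair cells, differed by 0.03 ± 0.07 between metals in slim1-1 (limma adjusted p = 0.746). In wild type it differed by -0.05 ± 0.07 (limma adjusted p = 0.535). Relative to the median gene these were -0.16 and -0.26. The root marker PYK10 was 0.60 ± 0.08 higher under cadmium in slim1-1 and 0.55 ± 0.08 higher in wild type (limma adjusted p = 1.61e-05 and 3.20e-05), or 0.41 and 0.34 relative to the median gene, calls that were lost after quantile and loess normalization, and it differed by -0.75 and -0.79 on the deposited values. The part of root cell types in the EXPA7 and EXPA18 differences was not tested.

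EXPA9 was also lower under cadmium in both genotypes. It lay at -0.43, -0.12 and -0.35 under cadmium and 0.69, 0.53 and 0.35 under arsenite in slim1-1, and at -0.85, -1.02 and -0.34 under cadmium and 0.55, 0.77 and 0.42 under arsenite in wild type (log2 minus the array median). The cadmium arrays were all below the arsenite arrays, and the EXPA9 difference was -0.82 ± 0.16 in slim1-1 (limma adjusted p = 0.000544) and -1.31 ± 0.16 in wild type (adjusted p = 1.06e-05), or -1.01 and -1.52 relative to the median gene. EXPA15 fell by 0.70 ± 0.19 under cadmium in wild type (limma adjusted p = 0.00505), and its difference in slim1-1 was -0.17 ± 0.19 (adjusted p = 0.431). Relative to the median gene these were -0.91 in wild type and -0.36 in slim1-1. It lay at 1.69, 1.69 and 1.36 under cadmium and 1.86, 1.66 and 1.73 under arsenite in slim1-1, and at 1.19, 1.23 and 1.61 under cadmium and 1.75, 2.56 and 1.81 under arsenite in wild type. Wild-type arsenite replicate 2 was high, and without it the wild-type difference of EXPA15 was -0.44, still past the threshold in limma, and its interaction 0.27. The slim1-1 groups overlapped and the wild-type groups did not, and the interaction above gives the test of that contrast.

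EXPA16 had the largest metal difference of the members. It lay at 1.81, 1.72 and 0.90 under cadmium and -1.36, -1.46 and -1.19 under arsenite in slim1-1, and at 1.53, 2.06 and 0.20 under cadmium and -1.38, -1.47 and -1.44 under arsenite in wild type (log2 minus the array median). The arsenite arrays were tight, the cadmium arrays were spread over a wide range, and replicate 3 was the lowest cadmium array of each genotype. The EXPA16 difference was 2.81 ± 0.36 in slim1-1 (limma adjusted p = 1.73e-05) and 2.69 ± 0.36 in wild type (adjusted p = 2.47e-05), or 2.62 and 2.48 relative to the median gene. By rank on the array, which needs no common scale, EXPA16 was above 54.7% to 68.5% of all probe sets in slim1-1 and 46.2% to 72.1% in wild type under cadmium. Under arsenite it was above 30.3% to 32.6% in slim1-1 and 29.1% to 30.5% in wild type. EXPA16 and EXPA8 were the only members whose difference was positive on the deposited values too, at 1.46 in slim1-1 and 1.34 in wild type for EXPA16.

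EXPA8 lay at 4.43, 4.65 and 4.96 under cadmium and 3.18, 3.41 and 2.74 under arsenite in slim1-1, and at 5.02, 4.96 and 5.02 under cadmium and 3.14, 3.54 and 3.41 under arsenite in wild type (log2 minus the array median). The groups were far apart in both genotypes, with an EXPA8 difference of 1.57 ± 0.17 in slim1-1 (limma adjusted p = 3.27e-06) and 1.64 ± 0.17 in wild type (adjusted p = 2.16e-06), or 1.38 and 1.43 relative to the median gene. EXPA20 lay at 0.21, 0.10 and 0.18 under cadmium and -0.84, -0.85 and -0.70 under arsenite in slim1-1, and at -0.01, -0.00 and -0.05 under cadmium and -0.95, -1.07 and -0.70 under arsenite in wild type. The EXPA20 difference was 0.96 ± 0.09 in slim1-1 (limma adjusted p = 1.01e-06) and 0.89 ± 0.09 in wild type (adjusted p = 2.14e-06), or 0.77 and 0.68 relative to the median gene.

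EXPA4 lay at 3.61, 3.44 and 3.16 under cadmium and 2.47, 2.23 and 2.28 under arsenite in slim1-1, and at 2.77, 2.97 and 3.12 under cadmium and 2.26, 2.97 and 2.49 under arsenite in wild type (log2 minus the array median). The slim1-1 groups were apart and the wild-type groups met at arsenite replicate 2. The EXPA4 difference was 1.08 ± 0.16 in slim1-1 (limma adjusted p = 8.57e-05) and 0.38 ± 0.16 in wild type (adjusted p = 0.0558), or 0.89 and 0.17 relative to the median gene. Without wild-type arsenite replicate 2 the wild-type difference of EXPA4 was 0.58 (limma adjusted p = 0.00403). Over the alternatives other than the unshifted values, EXPA4, EXPA8, EXPA16 and EXPA20 kept positive metal differences in both genotypes.

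**Figure D3:**
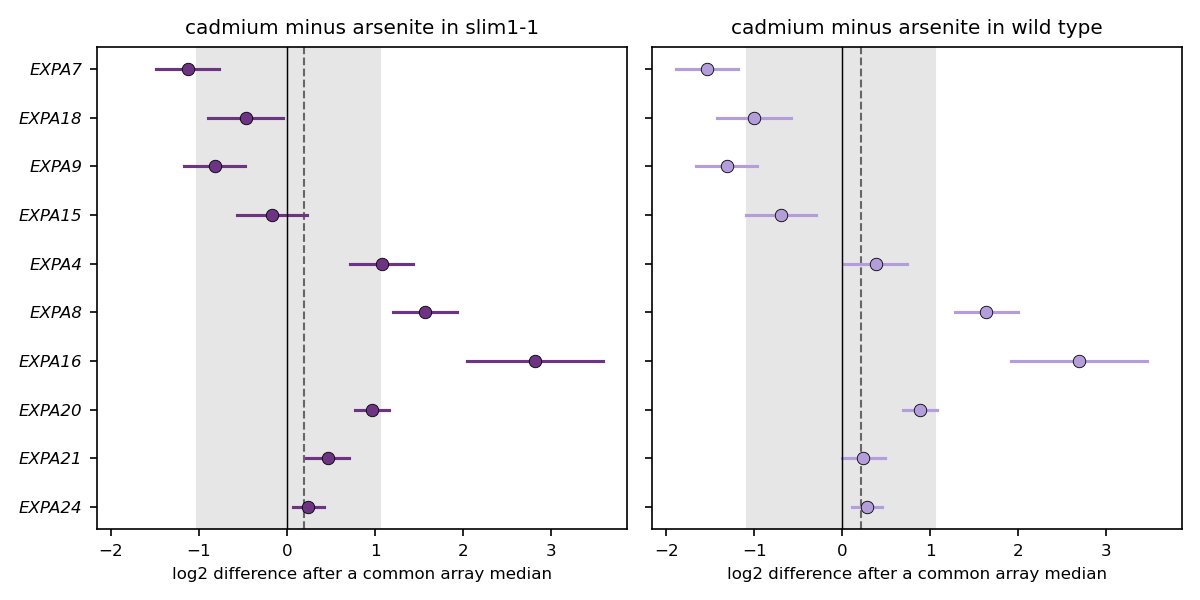
Log2 difference cadmium minus arsenite (horizontal axis, values shifted to a common array median) of each alpha-expansin gene in slim1-1 (left) and wild type (right), with 95% intervals from 3 arrays a group. The dashed line is the median of all 13356 genes (0.19 and 0.21) and the grey band their 5th to 95th percentile: EXPA16 and EXPA8 lie above the band in both genotypes, and EXPA7 lies below it. EXPA4 also lies above the band in slim1-1 only, and EXPA9 below it in wild type only.

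EXPA21 and EXPA24 had the lowest ranks on the arrays, and their metal differences were small. EXPA21 was 0.46 ± 0.11 higher under cadmium in slim1-1 (limma adjusted p = 0.00307) and differed by 0.24 ± 0.11 in wild type (adjusted p = 0.0760), or 0.27 and 0.03 relative to the median gene. EXPA24 was 0.24 ± 0.08 higher in slim1-1 (limma adjusted p = 0.0163) and 0.28 ± 0.08 higher in wild type (adjusted p = 0.00763), or 0.05 and 0.07 relative to the median gene. With the median gene set to 0 the EXPA24 calls were lost (adjusted p = 0.597 in slim1-1 and 0.490 in wild type), as was that of EXPA21 in slim1-1 (adjusted p = 0.0579) in limma. Both lay below the lower quartile, so neither difference is shown to be one of expression above background.

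The 3' minus 5' control differences of ubiquitin and GAPDH were apart between metals in both genotypes, and that of actin in slim1-1 only. The actin probe sets gave 3.71 to 3.97 under cadmium and 3.20 to 3.37 under arsenite in slim1-1, and 3.53 to 3.61 under cadmium and 3.28 to 3.66 under arsenite in wild type (log2, exact permutation p = 0.1 and 0.4). The ubiquitin probe sets gave 1.39 to 1.42 under cadmium and 0.88 to 0.95 under arsenite in slim1-1, and 1.37 to 1.43 under cadmium and 0.78 to 0.83 under arsenite in wild type (log2, exact permutation p = 0.1 in each genotype, the smallest possible). The leaf marker LHCB4.1, an antenna gene of photosystem II and 1 measured of 12, differed by 0.36 ± 0.06 in slim1-1 and 0.28 ± 0.06 in wild type, a sign that turned to -0.29 and -0.38 after quantile normalization and to -0.22 and -0.28 after loess. Relative to the median gene LHCB4.1 differed by 0.17 in slim1-1 and 0.07 in wild type, where the call was lost (limma adjusted p = 0.320). The guard cell marker FAMA, 1 measured of 6, differed by 0.22 ± 0.12 in slim1-1 and 0.12 ± 0.12 in wild type, or 0.03 and -0.09 relative to the median gene. Their part in the metal differences of the members was not tested.

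The scale decided the sign for some members. On the deposited values, where the median gene differed by -1.16 between cadmium and arsenite in slim1-1 and by -1.14 in wild type, EXPA4 gave -0.28 in slim1-1 and -0.97 in wild type and EXPA20 gave -0.39 in slim1-1 and -0.46 in wild type. EXPA21 gave -0.89 in slim1-1 and -1.11 in wild type on that scale, and EXPA24 gave -1.11 in slim1-1 and -1.07 in wild type. EXPA7, EXPA9, EXPA15 and EXPA18 had negative differences, and EXPA8 and EXPA16 positive ones, on all 5 scales in both genotypes.

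**Figure D4:**
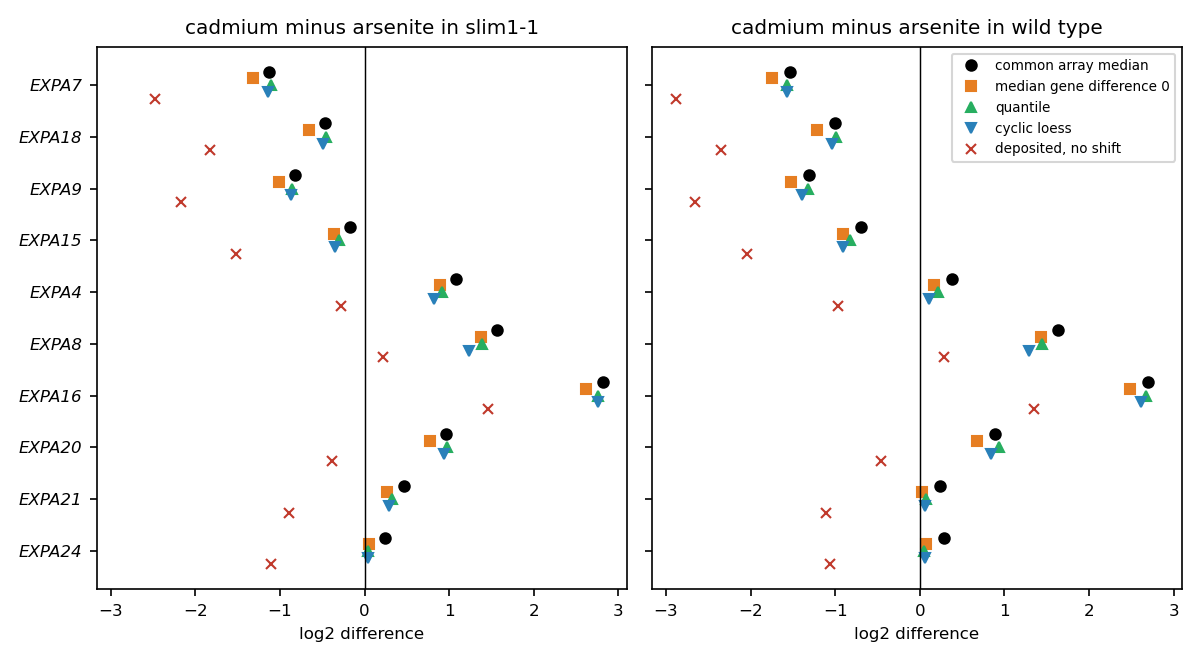
Log2 difference cadmium minus arsenite (horizontal axis) of each alpha-expansin gene in slim1-1 (left) and wild type (right) on 5 scales, marked by symbol: a common array median, the median gene set to 0, quantile and cyclic loess normalization over the 12 arrays, and the deposited values with no shift. Apart from the deposited values the scales lie close together, and EXPA24 lies next to 0 on 3 of them.

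Some members varied together over the arrays of a metal, with any genotype difference left in the values. Over the 12 arrays, each value taken minus the mean of the 6 arrays of its metal, EXPA4 and EXPA15 correlated with r = 0.908 (Spearman's rho = 0.937), with 0.899 over the 6 cadmium arrays and 0.965 over the 6 arsenite arrays, and with 0.863 when the 2 arrays farthest from the median of EXPA4 were left out. EXPA7 and EXPA18 correlated with r = 0.818 (rho = 0.804), with 0.788 under cadmium and 0.886 under arsenite, and with 0.765 without the 2 arrays farthest from the median of EXPA7. EXPA9 correlated with EXPA4 (r = 0.680) and with EXPA15 (r = 0.680). The median over all 45 pairs of members was 0.08, with a range from -0.52 to 0.91, and 5 pairs were above 0.5. These are descriptions of 12 arrays that hold both genotypes and share array-wide variation.

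**Figure D5:**
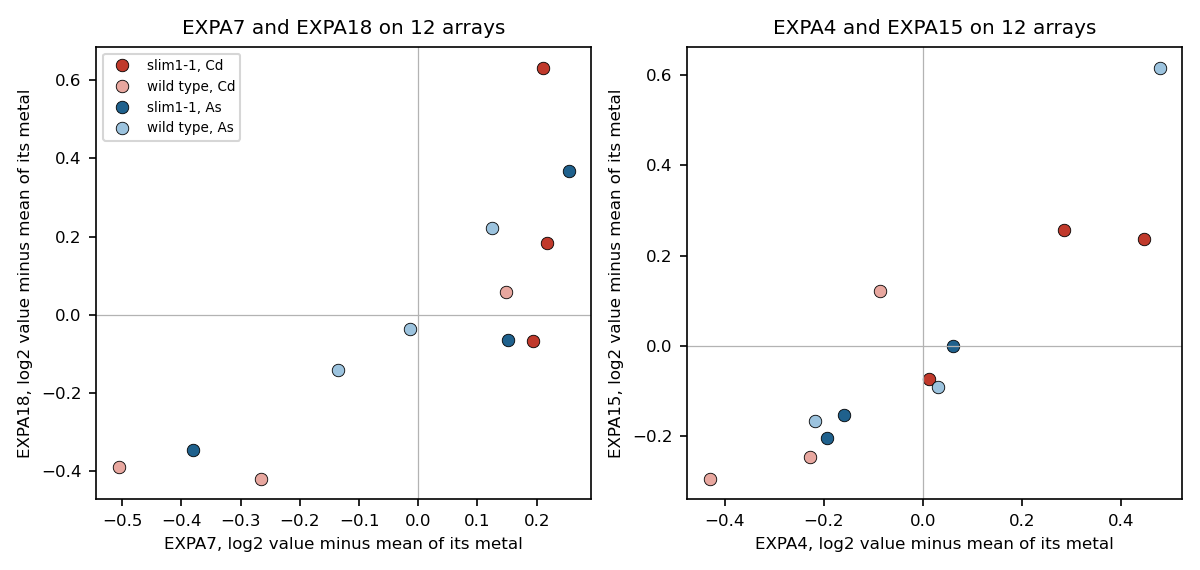
Log2 value minus the mean of the 6 arrays of its metal, EXPA18 against EXPA7 (left) and EXPA15 against EXPA4 (right), with 1 point for each of the 12 arrays coloured by group. The points rise together in both panels (r = 0.818 and 0.908), and the array at the upper right of the right panel is wild-type arsenite replicate 2.

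By the same measure over all tested genes, the 3 genes most like EXPA7 were AT3G22845 (r = 0.924), ARV2 (AT4G01510, r = 0.921) and AT1G13195 (r = 0.921), over 12 arrays. The metal differences of these genes were positive in both genotypes, at 0.69 in slim1-1 and 0.36 in wild type for AT3G22845, opposite to EXPA7 (values with a common array median, here and for the genes below). Between genotypes AT1G13195 was higher in slim1-1 under cadmium, by 0.42 ± 0.11 (limma adjusted p = 0.0266). AT3G22845 and ARV2 did not pass between genotypes under either metal. The 3 genes most like EXPA18 were AT3G49070 (r = 0.960), AT1G30870 (r = 0.941) and AT4G33740 (r = 0.931). Between metals AT3G49070 differed by 0.19 in slim1-1 and -0.15 in wild type (limma adjusted p = 0.218 and 0.326) and AT4G33740 by 0.13 and -0.03 (adjusted p = 0.209 and 0.761), and neither passed between genotypes under either metal. AT1G30870 was lower under cadmium than under arsenite, at -1.83 ± 0.25 in slim1-1 and -2.77 ± 0.25 in wild type (limma adjusted p = 3.13e-05 and 7.20e-07), and higher in slim1-1 than in wild type under cadmium, by 0.91 ± 0.26 (adjusted p = 0.0359). The likeness was the highest of 13356 genes, so it is a description with no test.

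The other expansin families and the wall-modifying genes that act beside expansins were counted from lists. Of 10 beta-expansin and expansin-like genes 8 were measured, and under cadmium 1 was higher and 1 lower in slim1-1, where 12.3% of all genes were called. The lists were chosen with earlier results of these data known, so counts from them do not measure an excess. The expansin-like gene EXLB1 had log2 values of 9.08, 8.64 and 8.70 in slim1-1 under cadmium, against 7.51, 7.75 and 7.82 in wild type under cadmium. All mutant arrays were higher, by 1.11 ± 0.15 (limma adjusted p = 0.000685). EXLA1 fell by 0.64 ± 0.11 in slim1-1 under cadmium (limma adjusted p = 0.0031). EXPB1 (0.55 ± 0.22) and EXPB3 (0.52 ± 0.20), beta-expansin genes, had differences of about the size of EXPA4, EXPA9 and EXPA18 and did not pass either (limma adjusted p = 0.136 and 0.113). Under arsenite none of the 8 passed, with 2 at an unadjusted p under 0.05. Between metals 4 of the 8 were higher and 3 lower under cadmium in slim1-1, and 2 higher and 4 lower in wild type, where 66.1% and 67.3% of all genes were called. EXLA3 had the largest such difference, -3.11 ± 0.18 in slim1-1 and -3.91 ± 0.18 in wild type (limma adjusted p = 1.42e-08 and 1.68e-09), or -3.30 and -4.12 relative to the median gene.

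Xyloglucan endotransglucosylase/hydrolases cut and rejoin xyloglucan, a polysaccharide that binds cellulose. Of 33 such genes 10 were measured, and under cadmium 3 were higher in slim1-1, XTH18 (0.72 ± 0.12), XTH19 (0.99 ± 0.23) and XTH32 (0.39 ± 0.08), and XTH27 fell by 0.45 ± 0.09 (limma adjusted p = 0.00293, 0.0141, 0.00771 and 0.00581). Over all tested genes 12.3% were called in that comparison, 6.62% higher and 5.71% lower. The XTH19 call was lost without slim1-1 cadmium replicate 1 (adjusted p = 0.0547) or wild-type cadmium replicate 1 (adjusted p = 0.0547) in limma. Under arsenite none of the 10 passed, with 1 at an unadjusted p under 0.05 (limma). Between metals, on the scale of a common array median, 5 were higher and 4 lower under cadmium in each genotype, against 66.1% of all genes called in slim1-1 and 67.3% in wild type. XTH18 fell by 1.80 ± 0.12 in slim1-1 and by 3.07 ± 0.12 in wild type under cadmium, or by 1.99 and 3.28 relative to the median gene. Of 11 pectin methylesterase genes 3 were measured, and PME35 was 0.99 ± 0.24 higher in slim1-1 under cadmium (limma adjusted p = 0.0184). PME35 no longer passed without slim1-1 cadmium replicate 1 (adjusted p = 0.0658), slim1-1 cadmium replicate 2 (adjusted p = 0.0746) or wild-type cadmium replicate 1 (adjusted p = 0.0755). Between metals 2 pectin methylesterase genes were higher and 1 lower under cadmium in each genotype, where 66.1% and 67.3% of all genes were called. Of 10 auxin and brassinosteroid growth genes 2 were measured. HAT2, an auxin-induced homeobox gene, was 0.65 ± 0.08 higher in slim1-1 under arsenite (limma adjusted p = 0.00371) and fell by 0.51 ± 0.08 in slim1-1 under cadmium (adjusted p = 0.00227). The HAT2 call under arsenite was lost with only the 6 arsenite arrays in the fit (limma adjusted p = 0.0699). Both HAT2 and IAA29 were higher under cadmium than under arsenite in each genotype. Cellulose synthase and plasma membrane proton pump genes of the lists were not paired with a probe set of 1 gene in the probe table and were not analysed here.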

How the data were processed

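The authors deposited log2 values made with RMA (per the submitters' processing notes, with no version); the genome build is not given in the sources used here, and no coordinates are printed. The table holds 22810 probe sets, of which 64 controls were left out of gene tests. Of the other 22746, the probe table lists 1 gene for 13513, several for 503, and does not list 8730. Of several probe sets of a gene (146 genes) the one with the highest mean was kept, which left 13356 genes, 13286 of them found by gene number in the RefSeq table (TAIR10.1). The values carry no detection calls.

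With limma 3.58.1 (lmFit, eBayes; R 4.3.3) a linear model with 1 mean for each group was fitted to all 12 arrays. Two-sided p-values were adjusted by Benjamini-Hochberg over all tested genes, with a threshold of 0.05. Metals were compared on values shifted to a common array median over the tested genes. The members and lists were chosen with earlier results of these data known. Named were all members, up to 4 called genes a list and comparison, and the 3 genes most correlated with EXPA7 and with EXPA18; EXPB1, EXPB3, SCN1, PYK10, LHCB4.1, FAMA and IAA29 were named beside them, some after their values were seen. Arrays with the same replicate number under a metal did not deviate together (r from -0.33 to 0.10 over 6 pairs), so the numbers were not taken as pairs. Arrays of the 2 genotypes with different numbers under a metal gave r from -0.14 to 0.34 over 12 pairs. The highest was between slim1-1 replicate 1 and wild-type replicate 3 under arsenite, and its cause was not tested.

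The script was tested on simulated data. Alternatives were other scalings, eBayes with trend and robust, array weights, a replicate block, only genes above the median level, all probe sets of a gene, all non-control probe sets, only the 6 arrays compared, and each array left out in turn. Setting the median gene to 0 and cyclic loess were added after seeing the data. RNA control values were compared with exact permutation tests.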

Additional observations from a re-analysis of the deposited data

Results flagged for a closer look

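No alpha-expansin gene met a criterion for a closer look, and groups of 3 arrays were too small for a test of single outlying arrays. The genotype difference under cadmium minus that under arsenite passed the limma interaction test for 6 of the 27 measured genes of the other lists. The share over all genes was 4.3%. The lists were chosen with earlier results of these data known, so the 2 shares do not measure an excess. It was 0.89 for EXLB1 (adjusted p = 0.0391), 1.26 for XTH18 (adjusted p = 0.00189), -0.54 for XTH27 (adjusted p = 0.0274) and 0.45 for XTH32 (adjusted p = 0.0420). It was -1.16 for HAT2 (adjusted p = 0.00039) and -1.83 for IAA29 (adjusted p = 0.0481), which encodes a repressor of auxin signalling. XTH18 had log2 values of 6.79, 6.92 and 6.97 in slim1-1 under cadmium, against 6.25, 6.39 and 5.89 in wild type under cadmium. Under arsenite XTH18 had 10.1, 10.1 and 9.94 in slim1-1, against 10.8, 10.4 and 10.5 in wild type, so the groups were apart in opposite directions under the metals. HAT2 had log2 values of 9.73, 9.79 and 9.86 in slim1-1 under cadmium, against 10.3, 10.3 and 10.4 in wild type under cadmium. Under arsenite HAT2 had 8.95, 8.98 and 8.91 in slim1-1, against 8.12, 8.33 and 8.44 in wild type. The calls of EXLB1 (adjusted p = 0.0565), XTH32 (adjusted p = 0.0761) and IAA29 (adjusted p = 0.0856) were lost with the replicate number as a block in limma, and the calls of IAA29 also after quantile normalization (adjusted p = 0.0602) and with trend and robust (adjusted p = 0.120), and of XTH32 with a common median (adjusted p = 0.0506). With each of the 12 arrays left out in turn, the calls of IAA29 and XTH32 were each lost 11 times, that of EXLB1 10 times and that of XTH27 7 times, and those of HAT2 and XTH18 were kept each time.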

How the results depend on the processing

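The count of alpha-expansin genes called between genotypes under arsenite, and for the interaction, was 0 under all alternatives. Between genotypes under cadmium it was 2 with array weights, 1 with only genes above the median level (EXPA4, 3 members tested), 1 with only the 6 cadmium arrays, and 0 to 1 with single arrays left out, against 0. Over all genes, 2177 were called with array weights, 1578 above the median level and 1462 with only the 6 cadmium arrays, against 1646. The member counts of these settings are thus not shown to exceed the share over all genes. Between metals the count of members was 2 in each genotype with only genes above the median level (3 members tested), and with single arrays left out 7 to 9 in slim1-1 and 8 to 10 in wild type. With the replicate block it was 0, 0 and 0 for the genotype comparisons and the interaction and 8 in each genotype between metals, which changed 1 call of a member, EXPA18 in slim1-1 (adjusted p = 0.0731, limma). With it 121, 1385 and 438 of all genes were called, against 140, 1646 and 574. The cause of these changes was not tested.

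Called genes of the other lists were, under arsenite, 2 with a common median, 2 with trend and robust, 8 with array weights, 2 above the median level, 0 with only the 6 arsenite arrays and 1 to 3 with single arrays left out, against 1. Under cadmium they were 9 with a common median, 9 with array weights and 9 above the median level (19 genes tested), against 8. They were 12 with only the 6 cadmium arrays and 6 to 9 with single arrays left out. For the interaction they were 5 with a common median, after quantile normalization or with trend and robust, against 6. They were 9 with array weights, 3 with the replicate block and 2 to 8 with single arrays left out. Between metals they were 26 in slim1-1 and 23 in wild type on the deposited values, against 23 and 22. After quantile normalization they were 21 and 22, and above the median level (19 genes tested) 17 and 16. With single arrays left out they were 22 to 24 in slim1-1 and 21 to 22 in wild type.

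On deposited values without a shift, signs between metals turned in slim1-1 for EXPA4 (-0.28), EXPA20 (-0.39), EXPA21 (-0.89), EXPA24 (-1.11), EXLA2 (-0.56), XTH33 (-0.33), PME34 (-0.62), PYK10 (-0.75) and LHCB4.1 (-0.99). In wild type they turned for EXPA4 (-0.97), EXPA20 (-0.46), EXPA21 (-1.11), EXPA24 (-1.07), EXLA2 (-0.61), EXLB1 (-0.10), XTH27 (-0.43), PME34 (-0.56), PYK10 (-0.79) and LHCB4.1 (-1.06). LHCB4.1 also turned with quantile (-0.29 and -0.38) and loess normalization (-0.22 and -0.28). The turns on deposited values follow from the step between the sets, and the cause of the others was not tested. On deposited values EXPA8 gave 0.22 and 0.29 and did not pass.

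Calls over all genes under arsenite ranged from 14 with only the 6 arsenite arrays to 744 with array weights, against 140, and were 296 over all non-control probe sets. They were 3227 under cadmium and 1179 for the interaction over all non-control probe sets, against 1646 and 574, and with single arrays left out 851 to 1794 and 280 to 785. Between metals the split of calls after quantile normalization was 4029 higher and 3317 lower in slim1-1 and 4162 and 3111 in wild type, and after loess 3596 and 3776, and 3540 and 3730. Signals near background, and small differences of genes whose replicates vary like those of EXPA16, cannot be resolved with 3 arrays a group.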
